A study of Mus musculus with 16 samples.

Results

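RNA of microglia sorted from the retinas of mice kept out of the oxygen-induced retinopathy (OIR) protocol was described at postnatal day 17 in 8 sequencing libraries, of 16 in the series. These libraries were chosen by their label, nonOIR, alone. No measured value entered the choice, and the 8 libraries labelled OIR entered no value below. OIR is a model in which a stay in high oxygen makes the vessels of the young retina regress and later regrow abnormally, and the nonOIR libraries are the undiseased side of that study. All mice carried Cx3cr1CreERT2 and Rosa26-tdTomato and had been injected under the skin at postnatal day 1 with 5 µl of tamoxifen at 21 mg/ml. In such mice a Cre recombinase made under the control of Cx3cr1 is switched on by tamoxifen and turns on the red protein tdTomato, so red cells are those that had Cx3cr1 active around the injection, and their descendants. The sorted cells were CD45low, CD11b+, tdTomato positive, Ly6C- and Ly6G-. The labels do not give the number of Cre alleles, the sex of the mice or how many animals entered a library, so p-values measure the spread between these libraries, which may be technical.

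Microglia are the macrophages that live within the brain and retina. They survive on signals through the receptor CSF1R, hold their identity under TGF-beta signalling, sense nucleotides from damaged cells through P2RY12, and tag and clear synapses and debris with complement and a large lysosomal apparatus. In the retina they lie in the synaptic layers and along the vessels, both of which mature in the third postnatal week.

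The libraries held between 13591651 and 27972049 counts on genes. Between 16918 and 18567 genes had at least 1 count in a library. Levels are given as CPM, the counts of a gene scaled to the same library total in every library, with ± for the SD over the 8 libraries, so 1 CPM stands for 13.6 to 28.0 reads. Ratios and orders between pairs of genes are given per length of their annotated exons (CPM per kilobase). Where a gene is called the highest or lowest of a list with no such mention, the order is that of CPM, which favours long genes. In bulk libraries, fewer cells of a type and less RNA per cell cannot be told apart. A code in the labels puts replicates 1 to 5 in lane 1 and replicates 6 to 8 in lane 2. Of 13428 genes tested between the lanes, 13.3% passed an adjusted p of 0.05 in edgeR's quasi-likelihood test, 590 of them higher in lane 2 (4.39%) and 1192 lower (8.88%). Scaled by total counts in place of TMM (trimmed mean of M values), the same test called 954 genes higher and 976 lower. The values of the lanes did not overlap for 13.3% of the genes in the direction of lane 2 and for 9.08% in that of lane 1. The median of the mean levels was 73.1 CPM for genes called higher, 51.4 CPM for genes called lower and 14.8 CPM for all tested. Shares of calls in lists of abundant genes are therefore not on the same basis as the shares over all genes. In the text, "higher" or "lower in lane 2" is used of genes that passed this test, log2 differences are lane 2 minus lane 1 ± SE, and where leaving out 1 library ended the call of a gene so described, that library is named. The effect of leaving out 1 library is not given for Selplg, Ctsz, Ms4a7, Ms4a4c and Pcna.

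The 4 microglial markers were high in every library. P2ry12, the ADP receptor that marks homeostatic microglia, ranged from 9271 to 12413 CPM with a median of 11252. Tmem119, a membrane protein of microglia of unknown function, ranged from 3798 to 4956 CPM with a median of 4433. Cx3cr1, the receptor for the neuronal chemokine fractalkine and the driver of the reporter, ranged from 1503 to 2852 CPM with a median of 2296. Cst3, which encodes the secreted cathepsin inhibitor cystatin C, ranged from 28792 to 36298 CPM with a median of 30879. P2ry12, Tmem119 and Cst3 did not pass the test between lanes (edgeR adjusted p = 0.207, 0.961 and 0.7). Scaled by total counts alone, P2ry12 passed as higher in lane 2 (log2 difference 0.24). Cx3cr1 was lower in lane 2, at 2282 to 2852 CPM in lane 1 and 1503 to 1859 in lane 2 (log2 difference -0.70 ± 0.09, edgeR adjusted p = 0.000537). All 36 genes of a wider microglial signature list had a mean of at least 10 CPM and 24 of at least 1000 CPM. Of the 36, 11 were lower in lane 2 and 3 (Gpr34, Tgfbr1 and Tspan7) higher, beside 8.88% and 4.39% of all genes tested. The call of Tspan7 was lost without any 1 of replicates 1 to 4 and 6 to 8. Together the 36 genes held 17.4 ± 0.662% of all counts (SD, n = 8). The lowest of them were Upk1b at 17.6 ± 5.18 CPM and the orphan receptor gene Gpr165 at 11.3 ± 6.74 CPM.

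The genes behind the sorting gate followed it, which the gate itself fixes. Ptprc, which encodes CD45, ranged from 407 to 699.6 CPM with a median of 519, and Itgam, which encodes CD11b, ranged from 208 to 395 CPM with a median of 288. Most of the exon length of Itgam (69.4%) overlaps the annotated gene Gm49368, so reads of the pair cannot be told apart. Ly6c1 had 2 counts over the 8 libraries, and Ly6c2 and Ly6g had 0, where 3 counts over all libraries would be 0.0168 CPM. Cx3cr1, Ptprc and Itgam, the 3 sort genes that were expressed, were all lower in lane 2, the call of Ptprc being lost without replicate 2, 6, 7 or 8.

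A small number of genes supplied most of the RNA. Of all counts 50% came from 259 genes and 90% from 3892. The 103 genes with a mean of at least 1000 CPM held 39.7% of the counts and the 1476 genes from 100 to 1000 CPM a further 36.2%. At the other end, 15361 genes had a count but a mean under 1 CPM, and 27775 of the 54532 genes in the table were at 0 in all 8 libraries. In total 9781 genes reached 1 CPM in all 8 libraries and 13740 in at least 1. The 20 genes with the highest mean CPM held 22.7 ± 1.00% of the counts, from 20.8% to 24.5% over the libraries. Protein-coding genes held 99.1% of the counts, and the 37 mitochondrial genes were at 0 in every library. The totals behind CPM thus hold no mitochondrial counts, and whether such reads were left out before counting was not tested.

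Genes of cathepsins, of their inhibitor and of complement led the list. Per kilobase the highest gene was Cst3, at 25013 ± 2285 CPM per kilobase, above the protease gene Ctss (cathepsin S) at 19477 ± 1266 CPM per kilobase. This order, Cst3 over Ctss, held in 8 of 8 libraries. The 3 genes for the chains of C1q, the molecule that opens the classical complement cascade, came in the order C1qb, C1qa, C1qc per kilobase in 8 of 8 libraries, at 9849 ± 1125, 5723 ± 493 and 4276 ± 365 CPM per kilobase. C1qb and Tmsb4x, which encodes the actin-binding thymosin beta 4, could not be put in order, because C1qb was higher per kilobase in only 5 of 8 libraries.

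The 20 highest per kilobase also held B2m (the light chain of MHC class I), P2ry12, Itm2b, Ctsd (cathepsin D), Tyrobp (the signalling adaptor DAP12), Lgmn (legumain, an asparaginyl protease), Serinc3, Apoe, Cd81, Csf1r, Gpr34, Ctsz (cathepsin Z) and Tmem119. They ran from 4575 ± 558 CPM per kilobase for B2m down to 1925 ± 161 for Tmem119. Of these 20 genes, 16 were also among the 20 highest by CPM, where the longer genes Ctsb, Sparc, Laptm5 and Selplg stood in place of B2m, Tyrobp, Ctsz and Tmem119. Parts of the exons of Ctsd (34.4%, with Gm49369), Csf1r (15.1%, with Hmgxb3) and Ctsb (12.8%, with Fdft1) overlap another gene, and the kit does not keep strand. Apoe, Csf1r and Laptm5 were lower in lane 2 and Gpr34 higher, calls that were kept without any single library. Apoe had a mean of 8610 CPM in lane 1 and 1306 CPM in lane 2. Selplg and Ctsz were also lower in lane 2. Ctsd, Ctsb and Sparc were lower in lane 2 too, calls lost without replicate 6 or 7 (Ctsd), 3, 4, 6 or 7 (Ctsb) and any of 3 to 8 (Sparc).

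**Figure D1:**
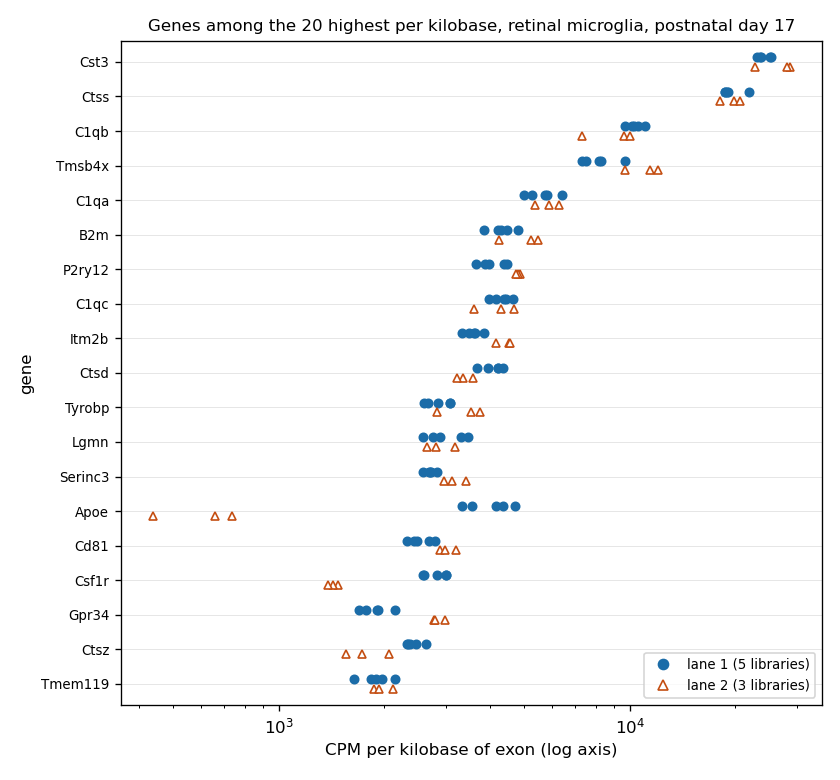
Genes among the 20 with the highest mean level per kilobase of exon, 1 point per library on a log axis of CPM per kilobase, with lane 1 as filled circles and lane 2 as open triangles. Cst3 and Ctss lie highest, and the lanes separate widely for Apoe and Csf1r but not for Cst3, Ctss, C1qa or C1qc.

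The promoters of several of these genes are shown because macrophage genes are known to be driven by the ETS factor PU.1, whose core site is GGAAGT with a longer form GAGGAAGT. RefSeq promoter windows (GRCm38.p6, 250 bases before to 50 after the start) were found for 14 of the 20 highest genes. Both strands were searched, and every GAGGAAGT also counts as a GGAAGT. Capitals mark the matches, which read as the reverse complement where the site lies on the other strand. Ctss and C1qc hold the longer form, P2ry12 the core alone, and Cst3, the highest gene, neither.
Ctss, chr3:95526536-95526835, plus strand: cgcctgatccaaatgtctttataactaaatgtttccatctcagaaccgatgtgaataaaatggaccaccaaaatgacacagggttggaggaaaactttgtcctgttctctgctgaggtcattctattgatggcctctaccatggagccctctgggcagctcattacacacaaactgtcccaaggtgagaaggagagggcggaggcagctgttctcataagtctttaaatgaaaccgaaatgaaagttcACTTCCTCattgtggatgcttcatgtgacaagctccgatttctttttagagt
C1qc, chr4:136892865-136893164, minus strand: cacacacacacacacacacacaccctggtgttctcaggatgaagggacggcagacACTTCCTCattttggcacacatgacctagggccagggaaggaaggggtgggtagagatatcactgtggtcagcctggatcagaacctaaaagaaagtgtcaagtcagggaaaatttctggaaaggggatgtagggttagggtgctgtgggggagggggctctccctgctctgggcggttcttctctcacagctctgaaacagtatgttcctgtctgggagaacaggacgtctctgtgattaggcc
P2ry12, chr3:59262936-59263235, minus strand: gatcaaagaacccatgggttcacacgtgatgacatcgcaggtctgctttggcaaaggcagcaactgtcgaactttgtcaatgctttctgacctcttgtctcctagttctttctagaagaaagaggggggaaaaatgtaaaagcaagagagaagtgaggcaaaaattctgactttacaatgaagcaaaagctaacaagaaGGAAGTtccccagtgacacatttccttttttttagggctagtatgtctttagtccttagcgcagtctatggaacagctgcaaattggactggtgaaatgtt
Cst3, chr2:148875463-148875762, minus strand: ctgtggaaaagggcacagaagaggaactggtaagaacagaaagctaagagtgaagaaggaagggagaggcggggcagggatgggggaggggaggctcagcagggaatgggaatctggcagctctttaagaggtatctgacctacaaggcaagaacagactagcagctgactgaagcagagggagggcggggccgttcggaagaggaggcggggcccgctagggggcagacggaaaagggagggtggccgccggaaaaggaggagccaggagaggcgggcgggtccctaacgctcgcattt
Of all 32851 windows 23.8% hold GGAAGT, against 23.5% (4 of 17) of the windows of the 20 highest genes and 38.7% (36 of 93) of those of the 100 highest protein-coding genes per kilobase. The longer GAGGAAGT is in 3.2% of all windows and in 8.6% (8 of 93) of those of the 100 highest. The joint ETS and IRF composite element, also searched on both strands, is in 2.72% of all windows, in 0 of 17 and in 2.15% (2 of 93). These are matches of letters and show no binding.

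Nucleotide receptors were among the highest receptors. P2ry12 stood at 4349.7 ± 468 CPM per kilobase, above its relative P2ry13, also an ADP receptor, at 1314 ± 89.8, by a median of 3.19 times and in 8 of 8 libraries. P2ry13 ranged from 3072 to 3820.1 CPM with a median of 3306. P2ry6, the UDP receptor linked to phagocytosis, ranged from 449 to 539.8 CPM with a median of 484. The ATP-gated channels P2rx7 and P2rx4 had means of 262 ± 44.2 and 195 ± 24.9 CPM. Entpd1 (CD39), the enzyme that removes extracellular ATP and ADP, ranged from 607 to 894 CPM with a median of 817 and was the 1 gene of the 12 tested in this list that was lower in lane 2. Of the 16 genes in the list 11 reached a mean of 1 CPM. Adora2b and Entpd2 were at 0 counts, and P2ry1 and Adora2a had 14 and 3 counts in all. Nt5e (CD73), which finishes the path from ATP to adenosine and is named here after its value was seen, was low at 1.84 ± 1.69 CPM.

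Cx3cr1 was the highest of 16 chemokine and complement receptors, by CPM and per kilobase. The receptors for the complement fragments C3a and C5a, C3ar1 and C5ar1, ranged from 588 to 761 CPM and ranged from 391 to 511 CPM. Per kilobase C5ar1 was the higher of the 2 in 6 of 8 libraries, with a median ratio of C3ar1 to C5ar1 of 0.908, so the pair could not be put in order. C5ar2 was at 60.4 ± 8.86 CPM. Ccr1 varied over its libraries, from 17.6 to 67.8 CPM. Ccr7, the receptor of migrating dendritic cells, had 13 counts and the neutrophil receptor Cxcr1 had 1. Of 14 tested in this list, C5ar1 and Cx3cr1 were lower in lane 2. The call of C5ar1 was lost with total-count scaling and without replicate 2, 3, 7 or 8.

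Gpr34, a receptor for lysophosphatidylserine, led the other G-protein receptors and ranged from 3551 to 6239.5 CPM with a median of 4242. It was higher in lane 2, where it ran from 5807 to 6239.5, than in lane 1, where it ran from 3551 to 4475 (log2 difference 0.52 ± 0.09, edgeR adjusted p = 0.00299). Per kilobase Gpr34 exceeded P2ry13 in 8 of 8 libraries by a median of 1.52 times. Adhesion receptors followed, Adgrg1 (GPR56) at 1156 ± 252 CPM and Adgre1 (F4/80) at 909 ± 87.3 CPM. Gpr183, a receptor for oxysterols, had 417 ± 48.4 CPM, and the fatty acid receptor Gpr84 249 ± 19.97 CPM. Of the 33 genes 23 reached 1 CPM. F2rl1 and the muscarinic receptor Chrm3 were lowest, with 7 and 2 counts. Of 25 tested, 5 were higher in lane 2, Gpr34, Cysltr1, Lpar6 and Gpr160 among them, beside 4.39% of all genes tested. In this list 1 gene, Adgrg1, was lower. The calls of Cysltr1 (without replicate 1, 3, 4, 6, 7 or 8), Lpar6 (1, 2, 3, 6, 7 or 8) and Gpr160 (6) were lost when 1 library was left out.

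A list of immune receptors and proteins that act with them formed a broad high group, in which 34 of 36 genes reached 1 CPM and 11 reached 1000 CPM. Ly86 (MD-1), partner of the Toll-like protein CD180, ranged from 3094 to 4408 CPM with a median of 3414. The tetraspanin Cd53 ranged from 2389.7 to 4399 CPM with a median of 3135 and was higher in lane 2. Sirpa, the receptor for the "do not eat me" signal CD47, ranged from 2324 to 3600.1 CPM with a median of 3196 and was lower in lane 2. Fcrls, an Fc receptor-like gene of microglia, ranged from 2169.8 to 3729 CPM with a median of 2388, and the Fc receptor gene Fcgr3 ranged from 2310.2 to 2871 CPM with a median of 2649.7. Per kilobase Fcgr3 was above Fcgr1, the high-affinity receptor, by a median of 6.19 times in 8 of 8 libraries. Trem2, the lipid-sensing receptor that signals through Tyrobp, stood at a median of 0.129 of Tyrobp per kilobase, below it in 8 of 8 libraries. Cd40 was low at 0.892 ± 0.821 CPM and Trem1 at 0.129 ± 0.364 CPM.

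Csf1r, the receptor for the growth factors CSF1 and IL-34 on which microglia depend, was the highest growth factor or cytokine receptor. It ranged from 8008 to 17310.0 CPM with a median of 14924, and the lanes did not overlap, with 14869.7 to 17310.0 CPM in lane 1 and 8008 to 8503 in lane 2 (log2 difference -1.04 ± 0.08, edgeR adjusted p = 3.17e-05). Per kilobase Csf1r exceeded Tgfbr1 in 8 of 8 libraries, by 1.84 to 7.03 times. Tgfbr1, the signalling TGF-beta receptor, ranged from 2631 to 5058 CPM with a median of 2988 and was higher in lane 2. Its partner Tgfbr2 ranged from 817 to 1255 CPM with a median of 1144, and was lower in lane 2, a call lost with total-count scaling and without replicate 6 or 8. Per kilobase Tgfbr1 exceeded Tgfbr2 by a median of 3.36 times in 8 of 8 libraries. Ifngr1, the ligand-binding chain of the interferon gamma receptor, varied little and ranged from 1884 to 2196 CPM with a median of 1996. It exceeded its partner Ifngr2 per kilobase by a median of 5.48 times. Il10ra and Il13ra1 had means of 655 ± 90.5 and 625 ± 107 CPM.

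Of the 54 growth factor and cytokine receptors, 42 reached 1 CPM and 22 reached 100 CPM. Il18r1 and the stem cell factor receptor Kit were at 0 counts, Egfr had 2 counts and the lymphatic VEGF receptor Flt4 had 1. The VEGF receptors Kdr and Flt1, named here after their values were seen, were at 5.32 ± 2.09 and 0.418 ± 0.463 CPM, and their co-receptor Nrp1, which was lower in lane 2, was at 224 ± 40.6 CPM. Of 43 tested, 15 were lower in lane 2 and 2 (Tgfbr1 and Il13ra1) higher, beside 8.88% and 4.39% of all genes tested. The call of Il13ra1 was lost without replicate 6. The median log2 difference of the 43 was -0.30, beside 0.01 over all genes tested.

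Sensors of microbial and nucleic acid patterns were mostly at moderate levels, with 21 of 24 at 1 CPM or more and 8 at 100 or more. Tmem173 (STING), the adaptor of the DNA-sensing pathway, ranged from 864 to 1067 CPM with a median of 938. Cd14, the co-receptor for lipopolysaccharide, ranged from 872 to 972 CPM with a median of 941. Tlr13, a sensor of bacterial ribosomal RNA, Tlr2, a sensor of lipoproteins, and Tlr7, a sensor of single-stranded RNA, had means of 547 ± 54.1, 529.7 ± 81.2 and 345 ± 55.4 CPM. Cd180 was at 199 ± 20.9 CPM. Nod2 and Tlr11 were lowest, at 0.680 ± 0.598 and 0.568 ± 0.692 CPM, and the scavenger receptor Marco was at 0 counts. Ly96 (MD-2) was the 1 gene of 23 tested that passed between lanes, and it was higher in lane 2, a call lost without replicate 1, 2, 4, 6 or 8.

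Itgb5, a beta chain that pairs with alpha v, was the highest integrin by CPM and per kilobase and ranged from 2458 to 4391 CPM with a median of 3744. Per kilobase it stood above Itgb2, the beta chain of CD11b, by a median of 3.18 times in 8 of 8 libraries. Itgb2, Itgb1, Itga6 and Itgav had means of 923 ± 143, 761 ± 138, 606 ± 132 and 211 ± 28.9 CPM. Of the 26 integrins 13 stayed under 1 CPM, with Itga10 and Itga2 lowest at 2 and 1 counts. Of 14 integrins tested 8 were lower in lane 2, Itgb5, Itgb2, Itgb1 and Itga6 among them, beside 8.88% of all genes tested. The median log2 difference of the list was -0.61. Scaled by total counts alone, 7 were lower.

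Transporters and channels included several with a known microglial role, and 35 of 37 reached 1 CPM. Slc2a5, the fructose transporter that marks microglia, ranged from 614 to 767 CPM with a median of 746. Slc11a1 (NRAMP1), which exports metal ions from phagosomes, ranged from 593 to 836 CPM with a median of 782. Slc3a2, the heavy chain of amino acid transporters, was at 774 ± 46.2 CPM, the lysosomal nucleoside transporter Slc29a3 at 623 ± 133, Abca9 at 604 ± 133 and Clic1 at 556 ± 39.8 CPM. The astrocytic glutamate transporter Slc1a2 was at 0.462 ± 0.532 CPM and Kcnq1 had 1 count. Of 36 tested 6 were lower in lane 2, Abca9 and Slc29a3 among them, and 1 (Kcnj2) higher, beside 8.88% and 4.39% of all genes tested. The call of Kcnj2 was lost without replicate 1, 2, 4, 6 or 7.

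Transcription factors of the microglial and myeloid lineage were nearly all present, with 40 of 41 at 1 CPM or more and 37 at 10 or more. Irf8, a factor needed for microglial development, ranged from 669.7 to 778 CPM with a median of 746 and was among the steadier of them. Spi1, which encodes PU.1 and is named here after its value was seen, had a mean of 314 ± 47.7 CPM and was lower in lane 2. Per kilobase it was above Irf8 in only 6 of 8 libraries, so the 2 could not be put in order. Mef2c and Mef2a had means of 579 ± 51.8 and 403 ± 26.4 CPM, and Mef2c was above Mef2a per kilobase in 8 of 8 libraries. Sall1, a repressor that in the adult nervous system marks microglia among immune cells, ranged from 193 to 441 CPM with a median of 349.7. Nfe2l2 (NRF2), the factor of the oxidative stress response, ranged from 228 to 386 CPM with a median of 349. Runx3 and Tfec were lowest, at 0.201 ± 0.177 and 1.12 ± 1.10 CPM.

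Of the 40 lineage factors tested 12 were lower in lane 2, beside 8.88% of all genes tested. Sall1 stood at 320.3 to 441 CPM in lane 1 and 193 to 234 in lane 2 (log2 difference -0.94 ± 0.10, edgeR adjusted p = 0.000182). Nfe2l2 was also lower (log2 difference -0.69 ± 0.08). Scaled by total counts alone, 10 lineage factors were lower and 1 higher.

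Among 58 factors that carry signals into the nucleus, 43 reached 1 CPM. Irf5, which acts behind Toll-like receptors, ranged from 351 to 456 CPM with a median of 433. Klf6 and Klf3 had means of 372 ± 54.3 and 339 ± 40.17 CPM, and the glucocorticoid receptor Nr3c1 228 ± 26.4 CPM. Ski, a repressor of SMAD signalling, ranged from 106 to 328 CPM with a median of 243, and its lanes did not overlap, at 201 to 328 against 106 to 148 CPM (log2 difference -1.26 ± 0.15, edgeR adjusted p = 0.000374). Stat6, which acts behind the IL-4 receptor, was at 214 ± 48.5 CPM and lower in lane 2. Stat4 and the retinoic acid receptor Rarb were lowest, with 12 and 11 counts. The nuclear receptors Nr1h3 (LXR alpha) and Pparg, named here after their values were seen, stayed under 1 CPM, at 0.648 ± 0.593 and 0.455 ± 0.598 CPM, while Nr1h2 (LXR beta) was at 33.3 ± 6.78 CPM. Of 52 tested 8 were lower in lane 2 and 1 (Id2) higher, beside 8.88% and 4.39% of all genes tested.

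**Figure D2:**
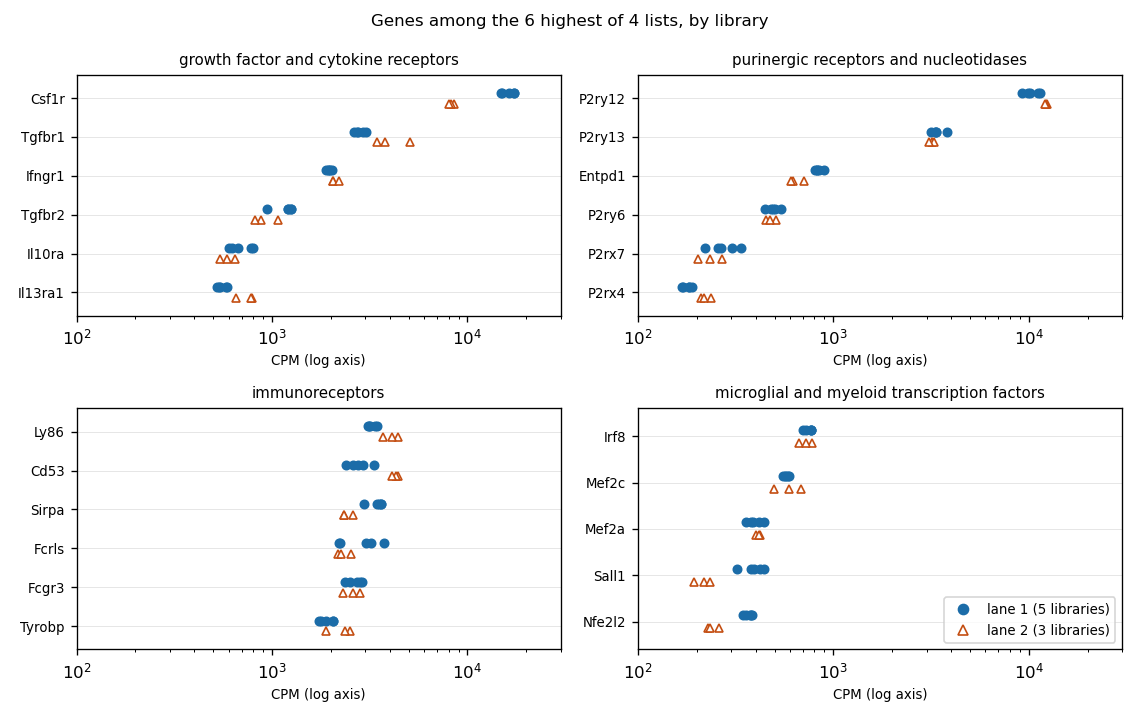
Levels by library of genes among the 6 highest of 4 lists (growth factor and cytokine receptors, purinergic genes, immunoreceptors, and microglial and myeloid transcription factors), on a log axis of CPM, with lane 1 as filled circles and lane 2 as open triangles. Receptors reach from about the level of P2rx4 (195 ± 24.9 CPM) to that of Csf1r (13189.6 ± 4190.2 CPM), while the factors shown lie between 320.2 ± 68.1 CPM for Nfe2l2 and 737 ± 38.7 CPM for Irf8.

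Immediate early genes, which are switched on within minutes by many stimuli and also by tissue dissociation, were present at uneven levels, with 19 of 24 at 1 CPM or more and 6 at 100 or more. Rhob ranged from 225 to 329 CPM with a median of 291, and Btg2 ranged from 217 to 393 CPM with a median of 242. Jun and Junb had means of 141 ± 21.7 and 136 ± 16.2 CPM, and Ier5 122 ± 13.8 CPM. Fos, Egr1 and Atf3, named here after their values were seen, had means of 6.52 ± 4.10, 10.5 ± 4.93 and 30.7 ± 4.78 CPM. The heat shock gene Hspa1a and Fosl1 were lowest, with 20 and 15 counts. Nfkbia, the inhibitor that NF-kB itself induces, ranged from 123 to 221 CPM with a median of 134. Of 20 tested, Btg2 and Nfkbia were higher in lane 2.

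Among secreted factors, complement was split between C1q and the rest. Of its 16 genes 4, the 3 C1q genes among them, were at 100 CPM or more, and the next were C4b at 14.5 ± 9.10 and C3 at 4.43 ± 3.34 CPM. In the list 8 stayed under 1 CPM, the inhibitor Serping1 and C7 had 1 count each, and Cfd and Cfi were at 0. C1qa, C1qb and C1qc did not pass the test between lanes, with edgeR adjusted p = 0.934, 0.133 and 0.528. C1qb was lowest in replicate 7, at 7944 CPM, and ran from 10508 to 12032 CPM in the other 7. C4b was lower in lane 2, at 10.8 to 25.5 CPM in lane 1 and 3.67 to 7.04 in lane 2.

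The chemokines with the highest CPM were Ccl6, Ccl9 and Ccl12, at 391 ± 89.4, 171 ± 41.6 and 415 ± 81.5 CPM per kilobase. Ccl6, a chemokine found in rodents, ranged from 549 to 925 CPM with a median of 622, and Ccl9 ranged from 378 to 696 CPM with a median of 482. Per kilobase Ccl6 was above Ccl9 by a median of 2.26 times in 8 of 8 libraries. Both were higher in lane 2 (log2 differences 0.53 ± 0.08 and 0.53 ± 0.10, edgeR adjusted p = 0.00192 and 0.00578). Ccl12, a ligand of CCR2, ranged from 178 to 318 CPM with a median of 219, and the membrane-bound Cxcl16 was at 109.5 ± 13.0 CPM. Ccl3 ran from 21.5 to 35.5 CPM, and per kilobase it was above Ccl4 in only 3 of 8 libraries, so the pair could not be put in order. Ccl8, Ccl17 and Ccl22 were at 0 counts, and the neutrophil attractants Cxcl1 and Cxcl2 had 16 and 11 counts in all.

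Most cytokines were low. Of 32 genes 17 reached 1 CPM and 3 reached 100 CPM. Those 3 were Il16 (186 ± 35.5 CPM), Il1a (146 ± 23.6 CPM) and Tgfb1 (135 ± 40.9 CPM). Il1a ranged from 109 to 174 CPM with a median of 148, and its relative Il1b, named here after its value was seen, ranged from 4.79 to 12.4 CPM with a median of 6.77. Per kilobase Il1a exceeded Il1b by 13.1 to 27.6 times over the 8 libraries. Tgfb1, the ligand on which microglial identity depends, ranged from 84.3 to 190.5 CPM with a median of 142 and was lower in lane 2, as were Il16 and Csf1. The B cell survival factor Tnfsf13b, Il18 and Il15 had means of 79.2 ± 9.48, 28.7 ± 3.97 and 20.2 ± 5.02 CPM. Tnf and Il6, also named after their values were seen, were at 2.30 ± 1.24 and 3.78 ± 1.16 CPM. Csf2, Csf3, Ifna4 and Ifng were at 0 counts, and Il23a and Lif had 6 and 1.

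Growth and angiogenic factors held 3 genes above 1000 CPM, and 25 of 48 stayed under 1 CPM. Psap (prosaposin), a lysosomal and secreted protein that supports neurons, ranged from 2309.7 to 6513 CPM with a median of 3843, and Grn (progranulin) ranged from 2794 to 4377 CPM with a median of 3158. Both were lower in lane 2, the call of Grn being lost without replicate 6, 7 or 8, and per kilobase Psap was the higher in 7 of 8 libraries. Pros1 (protein S), a ligand of the clearance receptors MERTK and AXL, ranged from 1298 to 1637 CPM with a median of 1408, and its relative Gas6 was at 197 ± 41.3 CPM. Sema4d was at 579.8 ± 133 CPM and lower in lane 2. Ang (angiogenin) was at 161 ± 24.7 CPM, and 18.4% of its exon length overlaps Rnase4. Of the vessel growth factors named after their values were seen, Pdgfb was at 79.9 ± 17.1 CPM, Vegfb at 21.4 ± 2.55, Igf1 at 19.2 ± 7.02 and Vegfa at 0.617 ± 0.400 CPM. Per kilobase Pdgfb exceeded Pdgfa by a median of 3.33 times in 8 of 8 libraries. Bmp4, Gdnf, Igf2, Sema7a, Vegfc and Wnt7b were at 0, and Angpt1 and Wnt5a had 1 count each.

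After Cst3, the genes of secreted proteins of matrix, protease control and lipid transport with the highest CPM were Sparc and Apoe. Sparc, a collagen-binding protein of the matrix, ranged from 5741 to 8734 CPM with a median of 6955. Apoe, the main lipid carrier of the nervous system, ranged from 936 to 10063 CPM with a median of 7363. Its lanes were far apart, with 7129 to 10063 CPM in lane 1 and 936 to 1577 in lane 2 (log2 difference -2.79 ± 0.18, edgeR adjusted p = 3.17e-05). Olfml3 and Serpine2 had means of 3634 ± 346 and 2419.7 ± 222 CPM and did not pass between lanes. The proteoglycan gene Vcan had 3 counts, and Timp1 and Retnla were at 0. Of 30 tested, 9 were lower in lane 2, beside 8.88% of all genes tested.

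The lysosome list of 40 genes held 12.1 ± 0.681% of all counts (SD, n = 8), and 34 of its genes reached 100 CPM. Ctss ranged from 24579 to 29807 CPM with a median of 25771. Ctsd, Ctsb, Lgmn and Laptm5 had means of 8981 ± 1007, 7236 ± 852, 6851 ± 754 and 6218 ± 1579.5 CPM. Ctsk, the cathepsin of osteoclasts, had 22 counts. Of 39 tested 15 were lower in lane 2 and 2 (Cd63 and Lamp2) higher, beside 8.88% and 4.39% of all genes tested. The call of Cd63 was lost without replicate 1, 2, 3, 4, 6 or 8. Laptm5 stood at 6961 to 8109 CPM in lane 1 and 4176 to 4704 in lane 2 (log2 difference -0.82 ± 0.08, edgeR adjusted p = 0.000124), while Ctss and Lgmn did not pass.

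Antigen presentation was weighted to class I. B2m ranged from 3307 to 4724 CPM with a median of 3770.0, the class I heavy chain H2-D1 ranged from 729.8 to 1585 CPM with a median of 1156, and H2-K1 had a mean of 473 ± 59.3 CPM. Near-identical class I genes can share reads, so their split is uncertain. Of the class II genes named after their values were seen, H2-Ab1 and H2-Aa were at 67.3 ± 9.27 and 7.38 ± 7.54 CPM and the invariant chain Cd74 at 76.0 ± 22.0 CPM. Ciita, the master regulator of class II, had 11 counts in all. Of 16 tested, Cd74, Tapbp and Tap2 were lower in lane 2, calls lost without replicate 7 or 8 (Cd74) and 6 (Tapbp).

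A list of genes that rise in disease-associated microglia was not at 0 in these undiseased libraries, and 23 of its 27 genes had at least 10 CPM. Its highest members, Ctsd, Ctsb, Apoe, B2m, Ctsl and Cd9, are also abundant genes of resting microglia. Members with a low baseline, named after their values were seen, were Spp1 (39.4 ± 20.5 CPM), Cst7 (33.1 ± 7.47 CPM), Itgax (28.5 ± 11.0 CPM) and Lgals3 (6.84 ± 3.13 CPM). Gpnmb and Ch25h were lowest, at 4.51 ± 2.105 and 0.903 ± 0.286 CPM. Of 27 tested 9 were lower in lane 2, Itgax among them, and 2 (Ccl6 and Cd63) higher, beside 8.88% and 4.39% of all genes tested. Clec7a, which encodes the receptor dectin-1, ranged from 131 to 322 CPM with a median of 171.

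Interferon-induced genes were low, with all 24 at 1 CPM or more but 0 at 100 CPM. Bst2 (tetherin) and Trim30a were highest, at 98.6 ± 16.4 and 91.9 ± 18.1 CPM, and Mx2 and Oas2 lowest, at 1.78 ± 1.01 and 1.35 ± 1.05 CPM. Over its 15 genes of at least 10 CPM, the median SD on the log2 scale within lanes was 0.389, beside 0.217 over all genes of that level. Ifitm3 ran from 14.4 to 64.9 CPM. Genes of DNA replication and mitosis were also low but present, with 33 of 34 at 1 CPM or more and 8 at 10 or more. Replication genes led, with Mcm3 at 63.0 ± 12.1, Rrm1 at 38.2 ± 9.88 and Mcm6 at 36.04 ± 5.86 CPM, while the mitotic genes Cenpf and Cenpe were at 1.14 ± 0.922 and 0.514 ± 0.519 CPM. Mki67, the usual marker of dividing cells, named after its value was seen, ranged from 0 to 8.02 CPM with a median of 0.839. It was lower in lane 2, at 0.783 to 8.02 CPM in lane 1 and 0 to 0.177 in lane 2 (edgeR adjusted p = 0.00844). Rrm1, Cdt1 and Mcm3 were also lower, the call of Mcm3 being lost with total-count scaling and without replicate 2, 3, 5, 7 or 8. With Mki67 these were the 4 lower genes of 34 tested, beside 8.88% of all genes tested. Pcna was higher in lane 2, a call lost without the low-count filter.

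Markers of other cell types were at or near 0 for several types and present for rods. For T and NK cells 8 of 11 genes were at 0 in every library and all 11 under 1 CPM, and the sum of the list ran from 0 to 1.11 CPM. For mast cells 6 of 7 were at 0. For granulocytes 5 of 12 were at 0, among them Ly6g, against which the gate sorted. Without Csf3r the other 11 summed to at most 1.29 CPM. Csf3r, the receptor for G-CSF, was itself at 219.7 to 357 CPM in these libraries and lower in lane 2. For pericytes and fibroblasts 11 of 12 genes were under 1 CPM and the sum ran from 1.02 to 10.1 CPM. The endothelial sum ran from 23.3 to 43.9 CPM, most of it from Pecam1 (27.0 ± 6.10 CPM), with Cldn5 at 0.0305 ± 0.0864 CPM and Tie1 and Esam at 0.

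Some of the lists held 1 or more genes well above 1 CPM in all 8 libraries while other genes of the list were near 0. In the B cell list Ighm, the heavy chain of IgM, ranged from 465 to 638 CPM with a median of 543, and Cd79b ranged from 76.0 to 116 CPM with a median of 92.4, while Igkc was at 0.0102 ± 0.0288 CPM and the other 6 genes summed to at most 0.842 CPM. In the oligodendrocyte list Cnp, Mbp and Mag had means of 129 ± 14.0, 36.5 ± 5.58 and 20.2 ± 2.94 CPM, while Mobp, Cldn11 and Olig2 were at 0. Cnp was lower in lane 2 at an adjusted p of 0.0499 in edgeR, a call lost with total-count or RLE (relative log expression) scaling and without any 1 of replicates 2 to 8. The Muller glia list summed to between 416 and 481 CPM. Of its 11 genes 8 had a mean of at least 1 CPM, and 3 (Glul, Dbi and Slc1a3) of at least 10 CPM. Glul (glutamine synthetase) ranged from 248 to 301 CPM with a median of 279, while Rlbp1 was at 6.27 ± 3.90 CPM. Aqp4 and Sox9, named after their values were seen, were at 0.780 ± 1.47 and 0.255 ± 0.398 CPM. In the dendritic cell list Siglech, which microglia also express, had a mean of 1583 ± 305 CPM and was lower in lane 2, and the other 9 summed to between 10.7 and 25.3 CPM. In the cone list Gngt2 was at 129 ± 22.3 CPM, and the other 8 summed to between 0.692 and 29.4 CPM.

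Rod photoreceptor RNA was in every library and varied between them. Without Gnb1, which many cells express, the other 14 rod genes summed to between 79.1 CPM in replicate 3 and 725 CPM in replicate 7, with a median of 329.8 CPM. Gnat1 (rod transducin) ranged from 13.5 to 107 CPM with a median of 52.6. The sum ran from 79.1 to 432 CPM in lane 1 and from 290.2 to 725 in lane 2, so the lanes overlapped, and of 15 genes tested 1, Gngt1, was higher in lane 2, a call lost without replicate 1, 2, 4, 7 or 8. The part of rod RNA in other results was not tested. Bipolar, amacrine and horizontal, and ganglion cell lists summed to at most 25.7, 36.3 and 71.4 CPM.

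Other myeloid lists were low and uneven. The monocyte list summed to between 19.5 and 76.1 CPM, with Ccr2 at 5.31 ± 1.29 CPM and Ly6c2, against which the gate sorted, at 0. F13a1, a gene of both this list and the next, supplied 63.2 CPM of the highest sum, in replicate 3. Of 5 genes tested in the monocyte list, 1 passed, Ms4a4c, which was higher in lane 2. The list of border and perivascular macrophages summed to between 118 CPM in replicate 8 and 411 in replicate 3. Its highest gene, Stab1, was at 117 ± 51.2 CPM and lower in lane 2. Of 10 genes tested in this list, 1 other passed, Ms4a7, which was higher in lane 2. Mrc1 (CD206), named after its value was seen, ran from 5.31 CPM in replicate 8 to 53.6 in replicate 3. Haemoglobin genes were low, with a list sum of 0 to 4.76 CPM in 7 libraries and 30.2 CPM in replicate 8. Hbb-bs and Hbb-bt were higher in lane 2, calls lost without replicate 8. The astrocyte list summed to at most 26.1 CPM, and its 1 gene above 10 CPM was Aldh1l1.

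**Figure D3:**
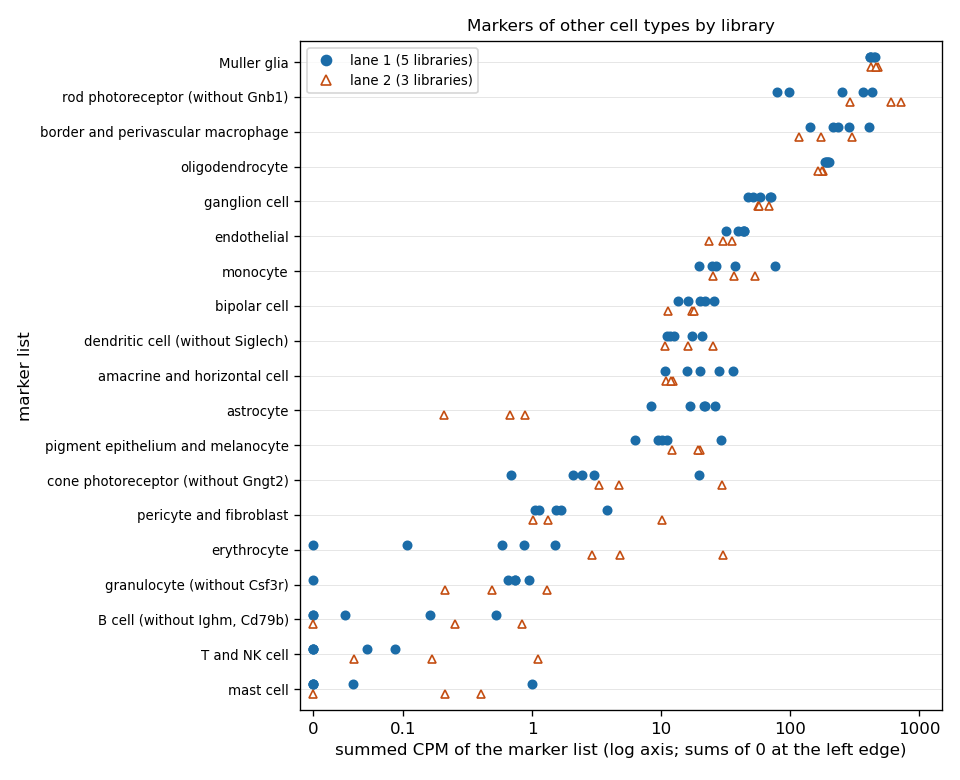
Summed CPM of the marker lists of other cell types in each library, on a log axis with sums of 0 drawn at the left edge, with lane 1 as filled circles and lane 2 as open triangles. Gnb1, Gngt2, Csf3r, Ighm, Cd79b and Siglech, which were high in all 8 libraries, were left out of their lists. Cnp, Mbp, Mag and Glul were kept in theirs, so the sums of the lists are not on 1 basis. Muller glia, whose sum is mostly Glul, stay within a narrow band while rods spread from 79.1 to 725 CPM.

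Within lanes, libraries differed little for most well-expressed genes. The median SD of log2(CPM + 1) about the lane means was 0.137 over 1579 genes with at least 100 CPM, 0.217 over 7689 genes with at least 10 CPM, and 0.459 for genes from 1 to 10 CPM. Of the 7689 genes 344 had an SD above 0.5 about the lane means, and 849 about the mean of all 8 libraries. The biological coefficient of variation in edgeR was 39.3%. Correlations of log CPM between libraries ran from 0.927 to 0.954 within lanes and from 0.906 to 0.933 between lanes. Replicate 8 lay farthest out on the first principal component (22.2% of the variance of the 500 most variable genes). Of the core microglial genes, Cst3, P2ry12, Tmem119 and Ctss had SDs of 0.118, 0.1005, 0.128 and 0.0987.

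The 12 genes with the widest spread fell mostly into 3 kinds. Xist, Ddx3y, Eif2s3y and Uty are linked to the sex chromosomes. F13a1, a gene of the monocyte and border macrophage lists, and Pf4, of the latter, ran from 0.977 to 63.2 and from 3.30 to 89.5 CPM, and F13a1 was lowest in replicates 2 and 8. Sag, Pde6b and Gngt1 are photoreceptor genes, and Sag (rod arrestin) ran from 9.24 to 82.2 CPM. The others were Card9, an adaptor of the dectin-1 pathway, from 1.62 to 24.9 CPM, and Pgap1, an enzyme of lipid anchors, from 1.56 to 21.5 CPM.

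The sex-linked genes differed by library. Xist, the RNA that silences an X chromosome in female cells, was at 59.2 to 208 CPM in replicates 1 to 7 and at 0.0843 CPM in replicate 8. The Y-linked gene Eif2s3y was at 21.4 to 50.1 CPM in all but replicate 5, where it had 0 counts. Ddx3y, Uty and Kdm5d, also on the Y chromosome, were each at 0.0357 CPM in replicate 5 and at 3.22 CPM or more elsewhere. Replicates 1 to 4, 6 and 7 thus held both Xist and Y-linked RNA, replicate 8 had 2 counts of Xist, and replicate 5 had 0 counts of Eif2s3y and 1 of each of the other Y-linked genes. No sex is given in the labels, and its part in the spread of other genes was not tested.

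**Figure D4:**
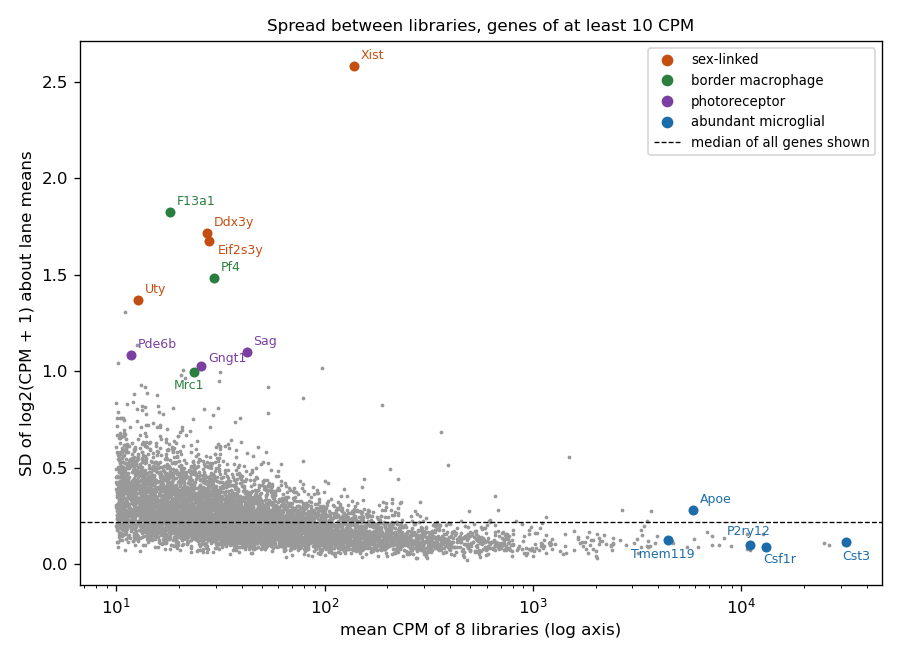
Mean level of each gene with at least 10 CPM (log axis, CPM) against the SD of log2(CPM + 1) about the lane means, 1 point per gene. Xist, Y-linked genes, F13a1, Pf4 and rod genes lie far above the bulk, whose median is 0.217. Core microglial genes such as Cst3 (0.118) and P2ry12 (0.1005) lie below that median. Spread falls with level, and the median over genes of at least 100 CPM is 0.137.

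The difference between lanes took in named microglial genes on both sides. The largest differences were taken among called genes whose lanes did not overlap and whose mean in the higher lane was at least 10 CPM. The 6 largest falls from lane 1 to lane 2 were in Aldh1l1, Apoe, 9930111J21Rik1, Ece1, Ciz1 and Cc2d1a, the last with a call lost without replicate 7 or 8. Aldh1l1, a folate enzyme known as an astrocyte marker, was at 6.96 to 22.1 CPM in lane 1 and 0 to 0.0418 in lane 2 (edgeR adjusted p = 3.17e-05). With 1 count in all of lane 2, the ratio of pooled CPM of lane 1 to lane 2 was 1136 (204 to 44892), an exact 95% interval that covers counting error only. Gfap, the main filament of astrocytes, named after its value was seen, was at 0.139 ± 0.169 CPM. The 6 largest rises were in Gm37125, D830025C05Rik, Hist4h4, Gm45546, the rod gene Gngt1 and the kinase gene Pbk. Gm45546 stood at 4.90 to 17.7 CPM in lane 1 and 49.2 to 65.1 in lane 2 (log2 difference 2.17 ± 0.31, edgeR adjusted p = 0.00109).

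Genes lower in lane 2 were longer and richer in G and C than those higher. Their median longest transcript was 4.32 kb and their median GC content 53.0%, against 2.54 kb and 44.7% for genes higher in lane 2 and 3.15 kb and 49.0% for all genes tested. By the annotation's type, 99.5% of the genes lower in lane 2 were protein-coding, against 86.4% of those higher and 85.8% of all tested. The genes typed otherwise numbered 6, 80 and 1902. The part of length and GC content in the lane result was not tested, and whether lanes differ by sequencing, preparation or animals cannot be told apart. At a difference of at least 2-fold, 407 of the called genes were lower and 99 higher. The number of genes called higher rested in part on single libraries, since it was 262 without replicate 6, 311 without replicate 8 and 362 without replicate 2, while the number lower was 803 at the fewest, without replicate 6.

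**Figure D5:**
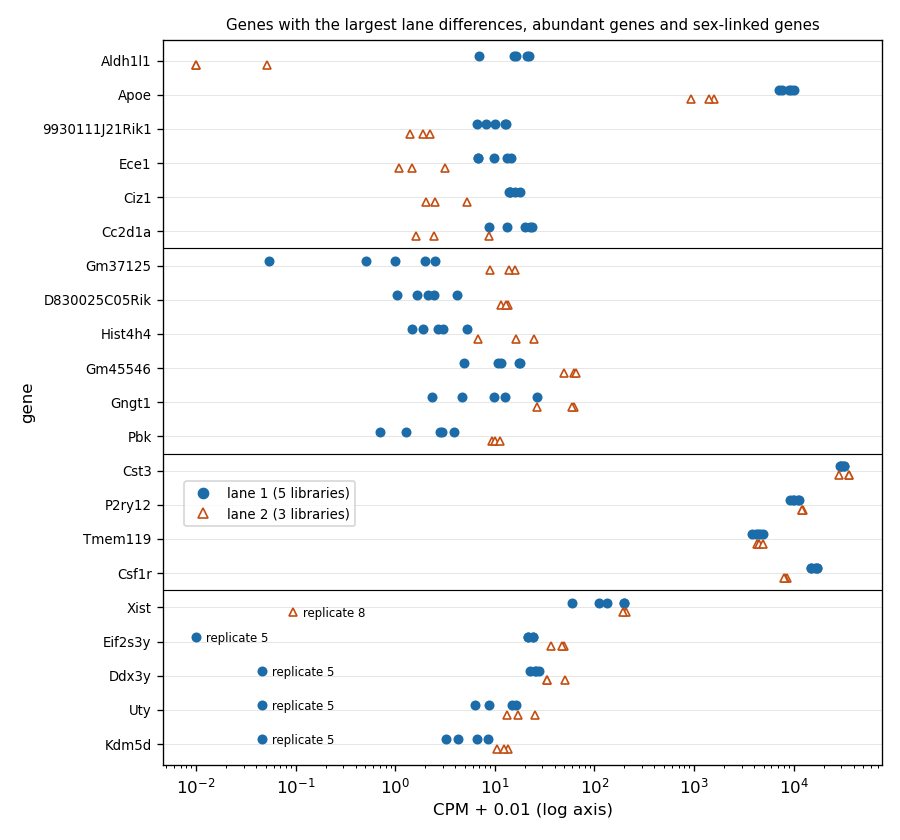
CPM + 0.01 by library on a log axis, for the genes with the largest lane differences, 4 abundant microglial genes and 5 sex-linked genes, with lane 1 as filled circles and lane 2 as open triangles. Aldh1l1 and Apoe separate the lanes, P2ry12 and Cst3 stay within a narrow band, and Xist is near 0 in replicate 8 while Y-linked genes are near 0 in replicate 5.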

How the data were processed

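RNA of sorted retinal microglia was amplified by the submitters with a SMARTer Ultra Low Input kit (v4) from 750 pg, in 12 cycles, and 150 pg of cDNA went into Nextera XT libraries read as single reads of 50 bases, per the labels' protocols. The libraries keep no strand and carry no molecular identifiers, so intervals and limits cover counting error only. The deposited table gives raw counts per gene for each library, per the file headers. The authors also deposited normalised values, a signal in which each library is scaled by a constant, and their own log2 fold changes, scores and p-values for OIR against nonOIR, and none of these was used. The submitters' processing notes name mm10, FastQC 0.72, STAR 2.6.0b-1, featureCounts 1.6.2 and DESeq2 2.11.40.2 without roles, and the annotation behind the counts is not stated there.

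Only the 8 nonOIR libraries were used, with their lane code from the labels. Their totals of 13591651 to 27972049 counts put the limit that 3 counts set between 0.107 and 0.221 CPM in a library, and at 0.0168 CPM over all 8. The smallest chi-square per gene between 2 of the libraries was 14.7, so none was taken for a repeat deposit. CPM was taken from total counts, and exon length, gene type and overlap from GENCODE M21, which held 54495 of the 54532 gene identifiers. The 100 symbols shared by more than 1 identifier are not resolved. Spread was the SD of log2(CPM + 1), with a pseudocount of 1. Lanes were compared with edgeR 4.0.16 in R 4.3.3 (filterByExpr, TMM scaling, robust glmQLFit, two-sided glmQLFTest, Benjamini-Hochberg adjustment over 13428 genes), and the scripts were tested on simulated data. Other steps ran in python 3.11.15 with numpy 2.4.6, pandas 2.3.3 and scipy 1.17.1. The alternatives were RLE scaling, total counts only, no low-count filter, DESeq2 1.42.0, each library left out, each lane alone, thinned counts and the length of the longest transcript.

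Genes are described in 24 lists by role and 19 lists for other cell types, with 835 of 838 list genes in the table. The members and lists were chosen with earlier results of these data known. The genes named are the 20 highest by CPM and per kilobase, in each role list the 6 highest, the 2 lowest with a count and those at 0, in each other list the 3 highest, the 12 most and least variable, the 6 largest lane differences each way and the 12 highest per kilobase that are not typed as protein-coding. Not every gene of the rule is printed and some are not reported here, and a gene outside it is said to be named after its value was seen.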

Additional observations from a re-analysis of the deposited data

Results flagged for a closer look

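Of 210 genes and list sums examined, 12 held 1 library whose gap to the nearest of the others was a larger part of the whole range of the 8 libraries than the 95% critical value of Dixon's test. Chance puts about 1 in 20 groups past this value, and no adjustment was made over the 210. Replicate 7 stood apart in 3 of the 12, low each time. C1qb was at 7944 CPM there against 10508 to 12032 in the other libraries, the complement list, which C1qb leads, summed to 21243 CPM against 25108 to 28154, and the list of secreted proteins of matrix, protease control and lipid transport summed to 48239 CPM against 57676 to 65677.

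Replicate 8 was high in 3. The pericyte and fibroblast list summed to 10.1 CPM there against 1.02 to 3.79 elsewhere, the erythrocyte list to 30.2 CPM against 0 to 4.76, and Clec7a was at 322 CPM against 131 to 200.3. Replicate 6 was high in Ccl12, at 318 CPM against 178 to 237, and in Nt5e, at 5.67 CPM against 0 to 2.28. F13a1 was at 63.2 CPM in replicate 3 against 0.977 to 26.0 in the others. P2ry13 was at 3820.1 CPM in replicate 2 against 3072 to 3365, and Psap at 6513 CPM in replicate 4 against 2310 to 4095. Rhob was low in replicate 5, at 225 CPM against 279.6 to 329.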

How the results depend on the processing

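The number of genes higher in lane 2 was 590, and it moved by more than 1.5 times with total counts only (954), with DESeq2 (1092) and without replicate 2, 6 or 8. With a library left out it ran from 262 to 696. With RLE scaling or no low-count filter it was 655 and 497. The number lower in lane 2 was 1192 and lay between 976 and 1649 under the same scalings, filter and test, and between 803 and 1284 with 1 library left out. The number of genes at 1 CPM or more in all libraries (9781) lay between 9729 with thinned counts and 10506 with lane 2 alone, and the share of the 20 highest genes between 22.4% and 23.03%. The number of genes with an SD above 0.5 (344) was 849 with no lane term and 308 to 412 with a library left out, alternatives chosen after seeing the data. By the longest transcript, 17 of the 20 highest genes per kilobase were shared. Of 210 mean levels 51 moved by more than 1.5 times with lane 2 alone, 28 with lane 1 alone and 29 with a library left out. Of those 29, 28 have a mean under 1 CPM, and the other was F13a1 (11.7 CPM without replicate 3). Of 1044 alternative lane differences for 87 genes, 928 kept their side of the threshold and direction, 103 (of 26 genes) lost the call, 1 (P2ry12) gained it and 12 changed sign, all of them in genes not called. C1qa reached 0.0534 with total counts only and ran from -0.0772 to 0.0564 with a library left out (0.0304 and 0.00416 without replicate 4 or 5), and C1qc ran from -0.225 to 0.00315. Tmem119 reached 0.00448 with RLE scaling, 0.0602 with total counts only, 0.00178 with DESeq2 and ran from -0.0880 to 0.0358 with a library left out, above 0 without replicate 2, 3, 6 or 7 (all log2). Without the low-count filter the calls of Gngt1, Cc2d1a, C5ar1, Cnp and Tspan7 were lost, as was that of Pcna, which is not among the 87 genes. The cause of these changes was not tested. No paired analysis was possible because only the nonOIR group was used and its lanes share no replicate numbers. Depth limits what is said of genes near 0: 3 counts are 0.107 to 0.221 CPM in a library.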

Other observations

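Several genes that the annotation does not type as protein-coding were abundant. Malat1, a nuclear RNA of most cell types, ranged from 616 to 2047 CPM with a median of 826. Its lanes did not overlap, with 616 to 830.4 CPM in lane 1 and 1408 to 2047 in lane 2 (log2 difference 1.16 ± 0.12, edgeR adjusted p = 0.000201). Mir142hg, the host transcript of a microRNA of blood-derived cells, had a mean of 17.8 ± 7.24 CPM and was also higher in lane 2 (log2 difference 0.94 ± 0.20, edgeR adjusted p = 0.0109), a call lost without replicate 6. Per kilobase the highest of these genes were Gm23935 at 371 ± 198, Mir6236 at 327 ± 168, Ighm at 290.1 ± 27.3, Gm15564 at 267 ± 118 and CT010467.1 at 159 ± 60.9 CPM per kilobase, and Gm23935, Mir6236 and Gm15564 were higher in lane 2, calls lost without replicate 7 (Gm23935) and 1, 2, 5, 6 or 7 (Mir6236). Ighm is typed as an immunoglobulin constant gene. The list also held, with the type that the annotation gives them, Clec7a, Ifi30 and Cct6a, which are known as genes with a protein. The heavy chain joining segment Ighj1 was at 3.19 ± 0.808 CPM, beside 547 ± 51.5 CPM for Ighm.

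The genes with the narrowest spread about the lane means, among those with at least 100 CPM, were Atp1b3, Il10rb, Arf1, Dhrs3, Lamp1, Stx7, Zdhhc9, Ppp1ca, Herpud1, Rsu1, Scamp2 and Cryl1. Lamp1, a membrane protein of lysosomes, ranged from 1728 to 2233 CPM with a median of 2162, with an SD of 0.0327 on the log2 scale about the lane means, and was lower in lane 2. Arf1, which recruits coats to Golgi membranes, ranged from 295 to 328 CPM with a median of 309.6, with an SD of 0.0319. Atp1b3, a beta chain of the sodium pump, ranged from 444 to 534 CPM with a median of 462, with an SD of 0.0232. Il10rb, the shared chain of the IL-10 receptor family, ranged from 249 to 321 CPM with a median of 258, with an SD of 0.0311, while its partner Il10ra had an SD of 0.169. These genes were chosen by this spread, so it is a description with no test.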
